A study of Mus musculus with 8 samples.

Results

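The insulin-like growth factor (IGF) axis was examined in mouse hepatocellular carcinoma cells through 10 genes of the 54838 in the count tables, chosen by symbol. They were the growth factor gene Igf2, the noncoding RNA gene H19, the receptor genes Igf1r and Igf2r, the binding protein genes Igfbp2, Igfbp3 and Igfbp4, and the RNA-binding protein genes Igf2bp1, Igf2bp2 and Igf2bp3. Their levels were measured by RNA-seq in 7 3H3PM subclones and in 1 library labelled 3H3P. Subclones 1, 2, 3, 6, 7, 8 and 9 were isolated from tumours in nude mice that grew from cells with a Trp53 knockout and ectopic MYC, and each gave 1 library. Which tumour each came from is not in the labels. The library labelled 3H3P came from the Trp53-knockout cells before MYC was introduced. All 8 libraries share the 3H3 origin, a liver tumour line with HrasQ61L from an MC4R-KO C57BL/6 mouse on a high-fat diet, and all cells were grown in serum-containing culture.

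IGF2 is a fetal growth factor that signals through the type 1 IGF receptor and the insulin receptor, while IGF2R carries it to lysosomes and lowers its supply. Igf2 and H19 are neighbours under 1 imprinting control region. Igf2 is normally expressed from the paternal copy and H19 from the maternal copy. IGF-binding proteins hold IGFs outside the cell. The IGF2BP proteins bind and stabilise mRNAs in the cytoplasm, are abundant in the fetus and return in liver cancer.

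The libraries held 12838521 to 17987068 expected counts, and no pair agreed within sampling noise (chi-square per degree of freedom 12.6 or more). Levels are given as CPM, counts scaled to library size. Trp53, knocked out in all 8 libraries by a frameshift, was still counted, at 46.7 to 66.6 CPM in the subclones and 212 CPM in the library labelled 3H3P. Mouse Myc was at 3.57 to 11.6 CPM in the subclones against 85.2 CPM in the library labelled 3H3P. No source used here gives the species of the ectopic MYC, so these counts do not test the group labels. The labels serve as names only. Hepatocyte markers summed to 3.93 to 32.05 CPM in the subclones and 1457 CPM in the library labelled 3H3P, with 6 of 8 tested markers lower and Cps1 at 0 throughout. In the subclones, epithelial markers summed to 77.1 to 313 CPM, fibroblast and stellate markers to 103 to 501 CPM and macrophage markers to 29.5 to 133 CPM. Those sums in the library labelled 3H3P were 1875 CPM for epithelial, 119 CPM for fibroblast and stellate, and 364 CPM for macrophage markers. Of 3 tested macrophage markers only Cd14 was called, lower in the subclones (log2 fold change −2.84, edgeR adjusted p = 0.00617). Csf1r (log2 fold change 0.07) and Cd68 (0.22) did not pass, and Adgre1 and Ptprc had 0 counts in the library labelled 3H3P. Of the fibroblast and stellate markers, 6 were tested, 1 was higher and 1 lower. For these marker counts, the shares over all tested genes were 7.33% higher and 11.8% lower by edgeR. Pdgfrb was at 94.4 to 143 CPM in the subclones and 0.747 CPM in the library labelled 3H3P (log2 fold change 7.24, edgeR adjusted p = 6.57e-05), and Dcn at 0 to 0.0692 CPM in the subclones and 116 CPM in the library labelled 3H3P. Epcam, Lum, Lrat, Cldn5 and Clec4f had 0 counts in every library. Endothelial markers summed to 0.229 to 2.15 CPM in the subclones and 1.99 CPM in the library labelled 3H3P, and lymphocyte markers to at most 0.0662 CPM. Their part in the results was not tested.

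Of the 10 genes, 9 passed the filter on low counts. Against the library labelled 3H3P, the subclones had higher Igf2, lower Igf2bp3 and lower Igfbp3, and 6 genes did not pass the test. These calls used edgeR's quasi-likelihood test with p-values adjusted over all 14634 tested genes and a threshold of 0.05. Over all tested genes 19.1% were called, 7.33% higher and 11.8% lower. H19 passed the filter through subclone 7 and Igfbp3 through the library labelled 3H3P, so counts over the 9 are a description. The library labelled 3H3P lay outside the range of the subclones for 4 of the 9 genes (Igf2, Igf2r, Igf2bp3 and Igfbp3), against 57.4% of all tested genes. The median log2 fold change of the 9 was 0.63, also with H19 at its bound, and that of all tested genes was 0.03.

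**Figure D1:**
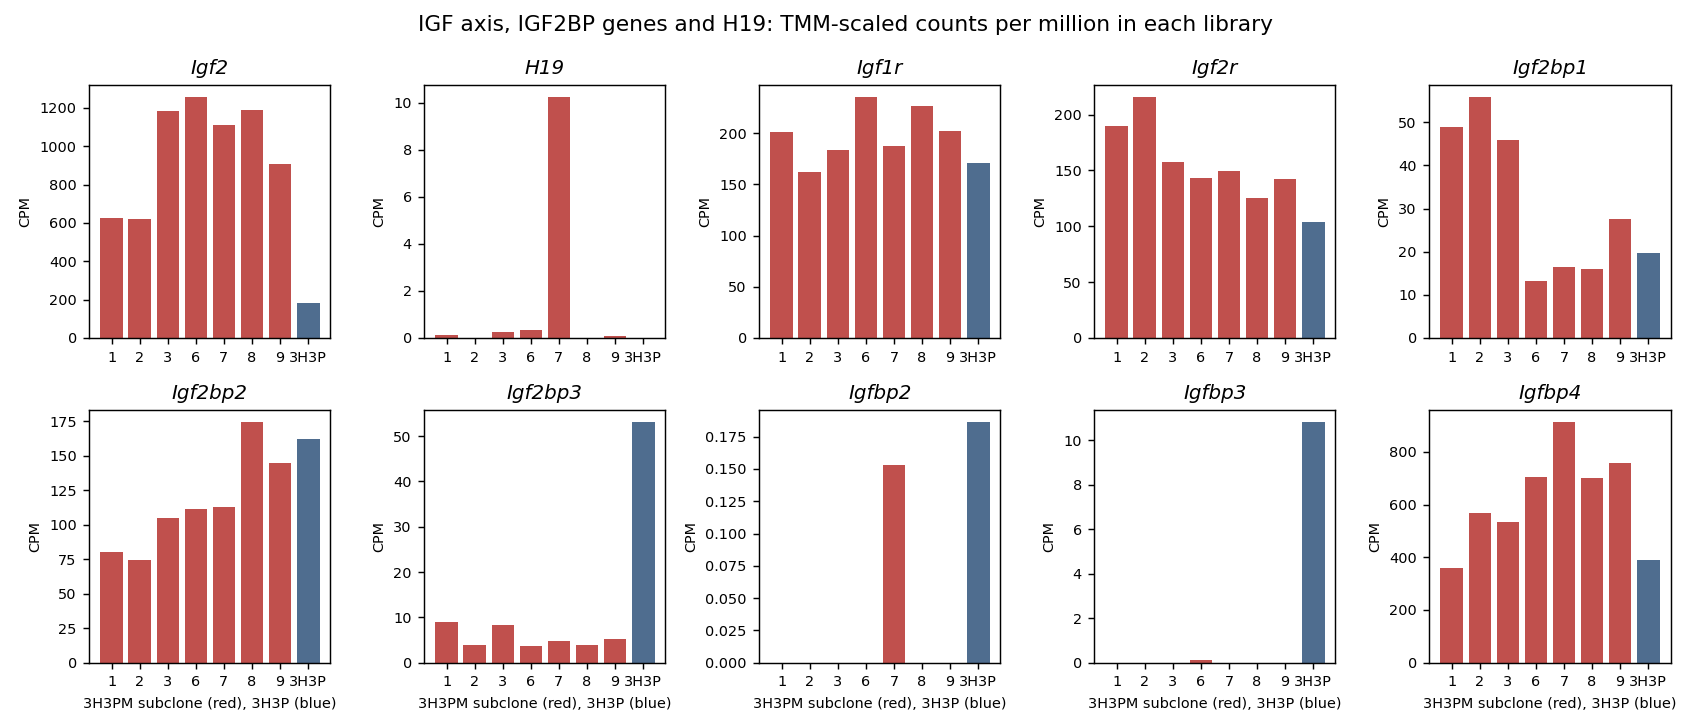
CPM (TMM-scaled, linear axes from 0) of each of the 10 genes in 7 3H3PM subclones (red, numbered) and the library labelled 3H3P (blue), 1 bar per library. Igf2 was at 618 CPM or more in each subclone and 184 CPM in the library labelled 3H3P, and H19 stood at 10.2 CPM in subclone 7 against at most 0.331 CPM elsewhere.

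Igf2 (ENSMUSG00000048583.16, GRCm38 chromosome 7, 142650766 to 142666816, minus strand) was the ligand gene expressed in these cells. It was at 627, 618, 1186, 1257, 1112, 1188 and 905 CPM in subclones 1, 2, 3, 6, 7, 8 and 9, against 184 CPM in the library labelled 3H3P. Subclones 1 and 2 were lowest, and the groups did not overlap. The mean of 985 ± 271 CPM in the subclones (SD, n = 7) was 5.34 times the level in the library labelled 3H3P. The log2 fold change was 2.42 (SE 0.47) with an edgeR adjusted p of 0.00869, higher in 7 of 7 subclones. In bulk samples, more RNA per cell and more cells that express a gene cannot be told apart. Per length, Igf2 reached 533 ± 149 TPM (transcript abundance scaled for length and library), and 98.4% of tested genes had a lower mean TPM in the subclones.

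Gm49394 and Igf2os overlap Igf2. Gm49394 spans 142650769 to 142669942 on the same strand, and reads may be split between it and Igf2. It held 9.87, 108.89, 21.35, 99.61, 382.86, 0 and 0 expected counts in subclones 1, 2, 3, 6, 7, 8 and 9, and 0 in the library labelled 3H3P. Adding its reads to Igf2 gave 991 ± 273 CPM in the subclones and 184 CPM in the library labelled 3H3P, with an edgeR log2 fold change of 2.46 and an adjusted p of 0.00848, a sum chosen after seeing the data. Igf2os, an antisense RNA from the opposite strand, was at 22.7 ± 4.42 CPM in the subclones and 6.04 CPM in the library labelled 3H3P (log2 fold change 1.91, SE 0.37, edgeR adjusted p = 0.00850). Its counts came to 1.90% to 3.20% of those of Igf2 in the subclones and 3.27% in the library labelled 3H3P. The library kit was directional, but no source used here says whether counting used the strand, so Igf2os and Igf2 reads may not be fully separated.

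The other ligands were at or near 0. Ins1 and Ins2, which encode mouse insulins, had 0 counts in all 8 libraries, an upper limit of 3 counts in each. Igf1, the IGF made by adult liver, had 12 counts over all subclones and 7 in the library labelled 3H3P.

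H19 (ENSMUSG00000000031.16, chromosome 7, 142575529 to 142578143, minus strand) did not follow Igf2. It had 2, 0, 5, 5, 134, 0 and 1 counts in subclones 1, 2, 3, 6, 7, 8 and 9 and 0 counts in the library labelled 3H3P. Subclone 7 alone stood out, at 10.2 CPM, while the other subclones were between 0 and 0.331 CPM. Pooled over the 7 subclones H19 was at least 7.37-fold higher, taking 3 counts as the limit of the library labelled 3H3P. Without subclone 7 it had 13 counts over 6 subclones, a mean of 0.132 CPM. That mean is under the limit of the library labelled 3H3P (0.187 CPM), so no fold is given. Taken singly, subclones 3 and 6, with 5 counts each, were above that limit. The edgeR adjusted p was 0.395. In subclone 7 Igf2 was at 1112 CPM, the median of the 7 subclones. The SD of log2 CPM over the subclones was 2.19 for H19 and 0.44 for Igf2, while the median over 12151 tested genes with a mean of 1 CPM or more was 0.28.

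H19 RNA is the host of miR-675 and Igf2 hosts miR-483 in an intron. Small RNAs were not measured, and the hairpin genes Mir675 and Mir483 lie within H19 and Igf2. Both hairpin genes had 0 counts in all 8 libraries. Their mature sequences are shown because their hosts are the genes just described, with the seed (bases 2 to 8) in capitals, from RefSeq on GRCm38.p6.
mmu-miR-675-5p: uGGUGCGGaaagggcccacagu
mmu-miR-675-3p: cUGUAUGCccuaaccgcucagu
mmu-miR-483-5p: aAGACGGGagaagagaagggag
mmu-miR-483-3p: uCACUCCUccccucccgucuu
No 2 of these 4 seeds were the same.

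The lower coordinate of Igf2 lies 75.2 kb from that of H19. All distances here are between lower coordinates, which for genes on the minus strand are not where transcription starts. Within 500 kb of H19 the annotation holds 57 genes, of which 20 were tested and 32 had 0 counts in every library. By edgeR, Igf2 and Igf2os were higher in the subclones, and Ctsd, Tspan32 and Cd81 were lower. Of these, Igf2 is a member, and its reads may not be fully separated from those of Igf2os. Tspan32 passed the filter on low counts through the library labelled 3H3P alone. Counts over this window are therefore a description. The shares over all tested genes were 7.33% higher and 11.8% lower. Ctsd, encoding the lysosomal protease cathepsin D, was at 492 to 616 CPM in the subclones and 1551 CPM in the library labelled 3H3P (log2 fold change −1.53, edgeR adjusted p = 0.000256). Gm49369 overlaps Ctsd, so its reads may be split. Cd81, a tetraspanin gene, was at 89.5 to 160 CPM in the subclones and 513 CPM in the library labelled 3H3P (log2 fold change −2.04, edgeR adjusted p = 0.000595). Mrpl23, the mitochondrial ribosomal protein gene between Ctsd and H19, was at 23.1 to 30.7 CPM in the subclones and 26.5 CPM in the library labelled 3H3P. Nctc1, a noncoding RNA gene beside H19, was at most 0.0639 CPM in any library. Of the 5 genes that passed, those higher were Igf2 and its antisense partner.

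**Figure D2:**
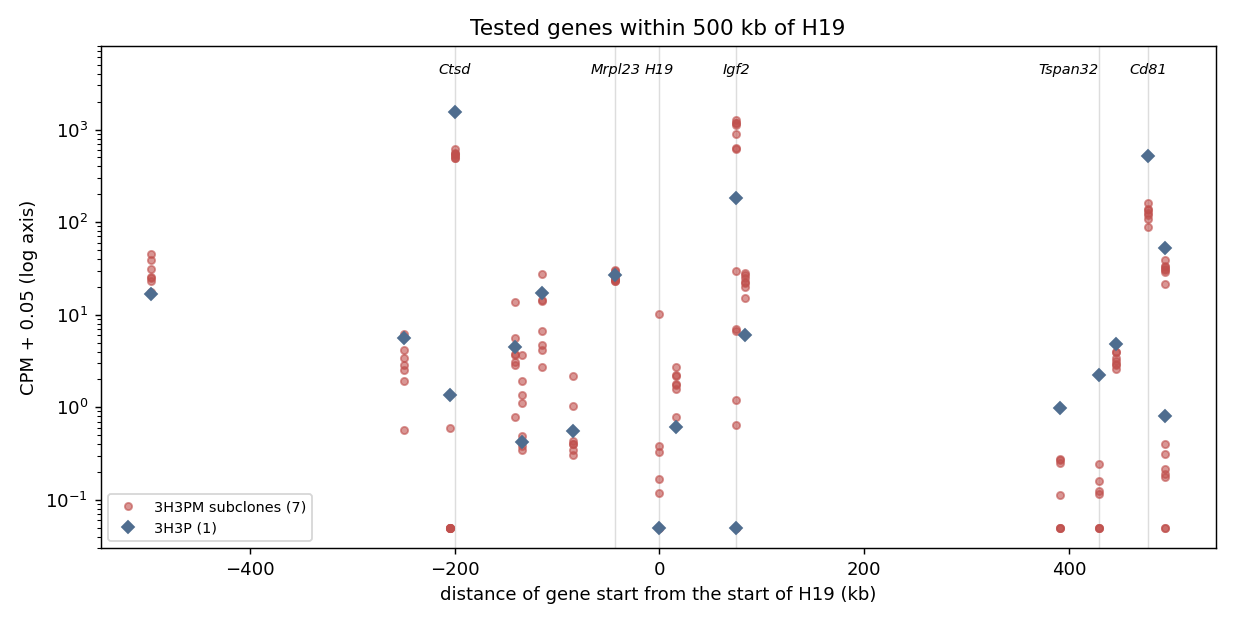
CPM plus 0.05 on a log axis of the 20 tested genes within 500 kb of H19, in 7 3H3PM subclones (red circles) and the library labelled 3H3P (blue diamonds). The horizontal axis is the distance in kb from H19, where the gene start is the lower coordinate on either strand. Igf2 lies above the library labelled 3H3P in each subclone, Ctsd and Cd81 below it; the lower points at the position of Igf2 are the overlapping Gm49394.

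Both receptor genes were expressed throughout, and neither passed the test. Igf1r (ENSMUSG00000005533.10, chromosome 7, 67952827 to 68233668, plus strand), the signalling receptor, had its lowest, median and highest values at 162, 202 and 235 CPM in the subclones, against 171 CPM in the library labelled 3H3P. The library labelled 3H3P lay within the range of the subclones (log2 fold change 0.23, SE 0.20, edgeR adjusted p = 0.466). Igf2r (ENSMUSG00000023830.14, chromosome 17, 12682406 to 12769664, minus strand), the clearance receptor, was at 189, 216, 157, 143, 149, 125 and 142 CPM in subclones 1, 2, 3, 6, 7, 8 and 9, against 103 CPM in the library labelled 3H3P. It was higher in 7 of 7 subclones without passing the test (log2 fold change 0.63, SE 0.28, edgeR adjusted p = 0.147). Airn, the antisense RNA that overlaps Igf2r, was at 0.764 to 3.41 CPM in the subclones and 4.36 CPM in the library labelled 3H3P (adjusted p = 0.357 by edgeR). Insr, the insulin receptor gene, was at 51.0 to 101 CPM in the subclones and 87.7 CPM in the library labelled 3H3P (adjusted p = 0.488 by edgeR).

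Per length, the balance of the receptors differed among subclones. The ratio of Igf2r TPM to Igf1r TPM was 1.09, 1.61 and 0.990 in subclones 1, 2 and 3, 0.742, 0.771, 0.532 and 0.697 in subclones 6, 7, 8 and 9, and 0.684 in the library labelled 3H3P. The ratio of Igf2 TPM to Igf1r TPM was 11.5 to 24.0 in the subclones and 4.04 in the library labelled 3H3P, without overlap.

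The binding protein genes differed widely in level. Igfbp3 (ENSMUSG00000020427.11, chromosome 11, 7206086 to 7213923, minus strand), which encodes the main IGF carrier of serum, had 0 counts in 6 subclones, 2 counts in subclone 6 and 174 counts in the library labelled 3H3P. The groups did not overlap. The ratio of library-scaled counts, 3H3PM over 3H3P, was 0.00173 with a 95% exact binomial interval of 0.000208 to 0.00634 for counting error, and the edgeR adjusted p was 0.000389. Igfbp2 (ENSMUSG00000039323.18, chromosome 1, 72824503 to 72852474, plus strand), a binding protein of fetal liver, had 2 counts in subclone 7 and 0 in the other 6 subclones, against 3 counts in the library labelled 3H3P. It did not pass the filter on low counts. Igfbp1, the insulin-regulated binding protein of hepatocytes, had 0 counts in all 8 libraries.

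Igfbp4 (ENSMUSG00000017493.12, chromosome 11, 99041244 to 99054392, plus strand), which encodes a binding protein cleaved by the protease PAPP-A, was abundant in both groups. It was at 359, 568, 536, 704, 915, 702 and 759 CPM in subclones 1, 2, 3, 6, 7, 8 and 9, against 388 CPM in the library labelled 3H3P. Subclone 1 was below the library labelled 3H3P and the other 6 were above it. The difference did not pass the test (log2 fold change 0.74, SE 0.41, edgeR adjusted p = 0.235). Pappa, the gene for that protease, fell to 6 counts over all 7 subclones, against 139 counts in the library labelled 3H3P (log2 fold change −7.03, SE 1.06, edgeR adjusted p = 0.00271). Like Igfbp3, it passed the filter on low counts through the library labelled 3H3P alone.

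Among the other regulators of IGF binding, 7 of 11 were tested, 2 were lower and 0 higher by edgeR. Shares over all tested genes were 11.8% lower and 7.33% higher. Of the 7, 2 passed the filter on low counts through the library labelled 3H3P alone and 3 through the subclones alone. Counts and medians over this list are therefore a description. At an unadjusted p under 0.05 there were 5. DESeq2 called 1 higher and 2 lower, and limma-voom 0 higher and 4 lower, the added ones being Pappa2 and Stc1. Beside Pappa, Igfbp7 was lower, at 113 to 222 CPM in the subclones and 586 CPM in the library labelled 3H3P (log2 fold change −1.87, SE 0.31, edgeR adjusted p = 0.00423). Igfbp7 encodes a secreted protein that binds IGFs weakly. Igfbp6, which encodes a binding protein that prefers IGF2, was at 2.07 to 74.7 CPM in the subclones, highest in subclone 8, against 0.187 CPM in the library labelled 3H3P. It was higher in 7 of 7 subclones, and its call turned with the tool, with an adjusted p of 0.121 by edgeR, 0.459 by limma-voom and 0.00352 by DESeq2. Of the summed TPM of Igfbp1 to Igfbp7, Igfbp4 made up 58.8% ± 3.17 in the subclones (SD, n = 7) and 21.1% in the library labelled 3H3P. Igfbp7 made up 36.9% ± 5.12 in the subclones and 78.2% in the library labelled 3H3P. The summed TPM itself was 722 ± 209 in the subclones and 1163 in the library labelled 3H3P.

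**Figure D3:**
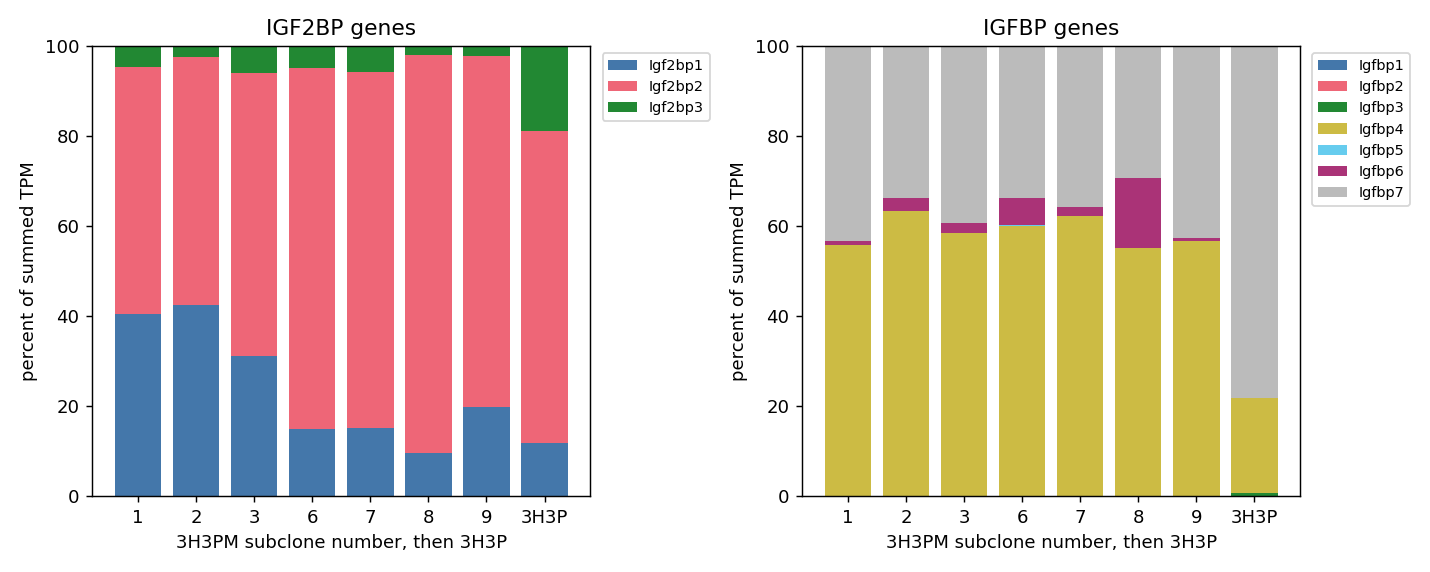
Share of the summed TPM of 3 IGF2BP genes (left) and 7 IGFBP genes (right) held by each gene, in percent, in 7 3H3PM subclones and the library labelled 3H3P, 1 bar per library. Igf2bp3 held 1.97% to 5.95% of the IGF2BP sum in the subclones and 18.8% in the library labelled 3H3P, and Igfbp4 held 55.2% to 63.3% of the IGFBP sum against 21.1%.

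Of the 3 IGF2BP genes 1 passed the test. Igf2bp3 (ENSMUSG00000029814.10, chromosome 6, 49085223 to 49214957, minus strand), whose protein marks fetal and tumour tissue, was at 8.88, 3.90, 8.24, 3.58, 4.81, 3.85 and 5.26 CPM in subclones 1, 2, 3, 6, 7, 8 and 9, against 53.2 CPM in the library labelled 3H3P. All 7 subclones were lower and the groups did not overlap (log2 fold change −3.27, SE 0.40, edgeR adjusted p = 0.00108). Malsu1 lies tail to tail with Igf2bp3 on the opposite strand and overlaps its end. It was at 18.8 to 26.5 CPM in the subclones and 25.2 CPM in the library labelled 3H3P.

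Igf2bp1 (ENSMUSG00000013415.9, chromosome 11, 95957163 to 96005940, minus strand) was at 48.9, 55.8 and 45.9 CPM in subclones 1, 2 and 3, at 13.3, 16.3, 16.01 and 27.5 CPM in subclones 6, 7, 8 and 9, and at 19.7 CPM in the library labelled 3H3P. The 3 lowest-numbered subclones were higher than the other 4, and the library labelled 3H3P lay within the range. Its SD of log2 CPM over the subclones, 0.87, was larger than that of 91.2% of the 12151 genes, and the comparison with the library labelled 3H3P did not pass (log2 fold change 0.70, SE 0.80, edgeR adjusted p = 0.569). The same split of subclone numbers held for Igf2r, whose values in subclones 1, 2 and 3 were all above those in subclones 6, 7, 8 and 9. The Igf2r values nearest the split were 157 CPM in subclone 3 and 149 CPM in subclone 7. How many of all tested genes split this way was not counted, so the split is not read as particular to these genes.

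Igf2bp2 (ENSMUSG00000033581.17, chromosome 16, 22059009 to 22163299, minus strand), the member of the family that persists in adult tissue, was at 80.3, 74.3, 105, 112, 113, 175 and 145 CPM in subclones 1, 2, 3, 6, 7, 8 and 9, against 162 CPM in the library labelled 3H3P. Only subclone 8 was above the library labelled 3H3P (log2 fold change −0.50, SE 0.38, edgeR adjusted p = 0.391). In TPM, Igf2bp2 was the most abundant of the 3 in each of the 8 libraries, with 71.2% ± 13.4 of their sum in the subclones (SD, n = 7) and 69.4% in the library labelled 3H3P. Igf2bp1 ranged from 9.61% in subclone 8 to 42.6% in subclone 2. The sum of the 3 was 69.9 ± 11.2 TPM in the subclones and 98.7 TPM in the library labelled 3H3P.

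The TPM of Igf2bp3 rests on a length that varied with the estimated isoform shares. Subclone 6 held 54.4 counts over an estimated 1931 bases and gave 2.99 TPM, while subclone 1 held 149.65 counts over 4338 bases and gave 3.16 TPM. In TPM the subclones spanned 1.36 to 4.17, against 18.6 in the library labelled 3H3P.

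**Figure D4:**
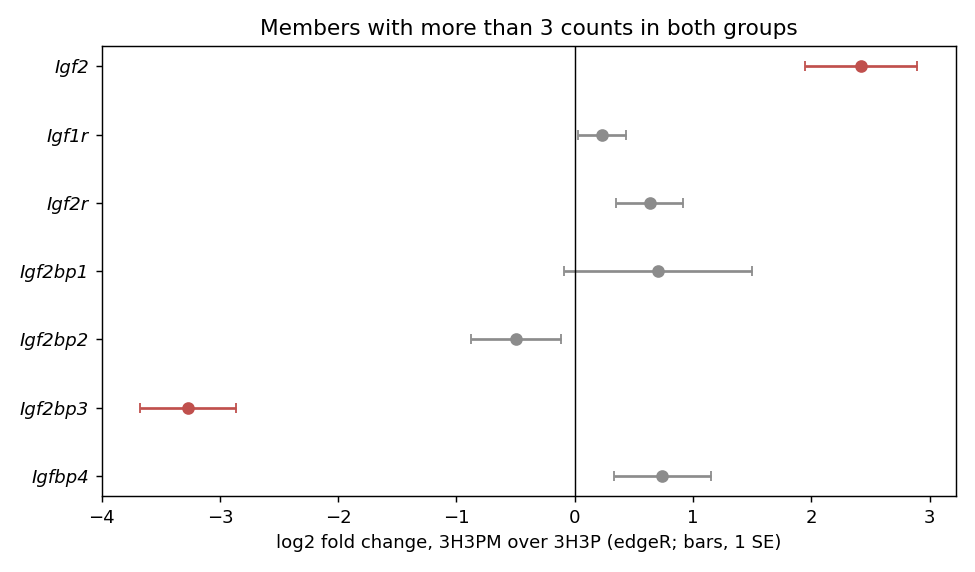
Log2 fold change of 3H3PM over 3H3P by edgeR with 1 SE for the 7 members that had more than 3 counts in both groups (red, adjusted p under 0.05; grey, not). Igf2 lies at 2.42 and Igf2bp3 at −3.27, and the bars of Igf2bp1 reach 0.

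The IGF2BP mRNAs are known targets of the let-7 miRNAs, which share the seed GAGGUAG. All 6 members of the family taken from RefSeq (GRCm38.p6) carried it, of which 2 are shown with the seed in capitals.
mmu-let-7b-5p: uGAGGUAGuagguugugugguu
mmu-let-7g-5p: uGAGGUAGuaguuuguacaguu
The reverse complement of that seed, CTACCTC, was searched on the sense strand of the longest GENCODE vM21 transcript of each gene, and is in capitals below with the 15 bases before it and 1 after. They are shown because let-7 is a known regulator of this family.
Igf2bp1 site 1: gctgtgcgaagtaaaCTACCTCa
Igf2bp1 site 2: cagcagtgctattaaCTACCTCa
Igf2bp1 site 3: gtataaatggatgaaCTACCTCa
Igf2bp1 site 4: acttttggttttaatCTACCTCt
Igf2bp2 site 1: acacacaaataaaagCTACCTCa
Igf2bp3 site 1: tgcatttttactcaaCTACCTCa
Igf2bp1 held 4 matches in 8378 bases. Of 1047 tested genes with a transcript of 80% to 125% of that length, 0.573% held as many or more. Its matches began at bases 3756, 6177, 6771 and 7394. The length estimated for Igf2bp1 was shorter, at 2313 to 3541 bases in the subclones and 2546 in the library labelled 3H3P. The isoforms expressed may thus lack matches found in the longest transcript, for Igf2bp1 and for the other genes. Igf2bp2 and Igf2bp3 held 1 each, where 31.2% and 28.3% of genes of like length held 1 or more. Igf1r held 4 in 11409 bases (1.90% of genes of like length held as many), and H19 and Igfbp4 held 0. A match of letters is no measure of binding, and let-7 itself was not measured.

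Since MYC was introduced into the 3H3PM cells, the E-box CACGTG, the core site of MYC and MAX, was searched in promoter windows of 250 bases before to 50 after the start (RefSeq, GRCm38.p6). CACGTG reads the same on both strands. Windows were found for 8 of the 10 genes, 12 in all, and 3 held the motif, against 7.15% of 32851 windows of the same length. Igf2bp3 and Igf2r held 2 matches each, where 0.594% of all windows held 2 or more, and Igfbp2 held 1. The windows of Igf2bp3 and Igf2r are shown because they hold the most matches, with each match in capitals.
Igf2bp3, chr6:49214905-49215204, minus strand: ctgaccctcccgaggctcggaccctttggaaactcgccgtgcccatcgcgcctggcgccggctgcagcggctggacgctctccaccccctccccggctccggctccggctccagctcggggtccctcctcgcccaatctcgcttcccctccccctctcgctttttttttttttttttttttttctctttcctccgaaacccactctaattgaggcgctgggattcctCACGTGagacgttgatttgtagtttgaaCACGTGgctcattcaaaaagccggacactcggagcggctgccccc
Igf2r, chr17:12769657-12769956, minus strand: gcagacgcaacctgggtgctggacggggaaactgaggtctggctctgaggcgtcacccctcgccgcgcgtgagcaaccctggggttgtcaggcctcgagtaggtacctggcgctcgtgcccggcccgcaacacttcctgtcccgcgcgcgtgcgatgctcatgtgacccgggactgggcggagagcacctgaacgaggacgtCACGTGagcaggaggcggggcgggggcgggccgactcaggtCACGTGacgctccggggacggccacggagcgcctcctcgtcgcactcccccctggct
The matches began at −23 and 6 from the start in Igf2bp3 and at −48 and −7 in Igf2r. Igf2bp3 fell to 5.50 ± 2.18 CPM in the subclones, against 53.2 CPM in the library labelled 3H3P, and Igf2r averaged 160 ± 31.4 CPM against 103 CPM, a difference that did not pass. None of the 4 Igf2 windows held CACGTG, which says only that these letters are not in those windows.

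Ordered by mean TPM in the subclones, the genes ran Igf2 (533 ± 149), Igfbp4 (426 ± 131), Igf2bp2 (50.5 ± 15.7), Igf1r (31.0 ± 5.46), Igf2r (27.0 ± 5.37), Igf2bp1 (16.7 ± 7.90), Igf2bp3 (2.71 ± 1.07), H19 (1.33 ± 2.88), Igfbp2 (0.0429 ± 0.113) and Igfbp3 (0.0129 ± 0.0340). Igf2 and Igfbp4 overlapped, with Igf2 the higher in 4 of 7 subclones. Igf1r and Igf2r overlapped too, with Igf1r the higher in 5 of 7. Igfbp4 and Igf2bp2 did not overlap, nor did Igf2bp1 and Igf2bp3. In the library labelled 3H3P Igfbp4 (246 TPM) came before Igf2 (96.3 TPM), and Igf2bp3 (18.6 TPM) came before Igf2r (16.3 TPM) and Igf2bp1 (11.6 TPM).

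Downstream of the receptors, 26 of 27 genes of the adaptor and AKT branch were tested. By edgeR 3 were higher, 0 lower and 23 did not pass, against 7.33% higher and 11.8% lower over all tested genes. At an unadjusted p under 0.05 there were 5. DESeq2 called 4 higher and 0 lower, and limma-voom 3 higher and 0 lower. The median log2 fold change was 0.24. Akt1, a central kinase of the branch, was at 336 to 422 CPM in the subclones and 223 CPM in the library labelled 3H3P (log2 fold change 0.76, SE 0.17, edgeR adjusted p = 0.0142). Shc1, an adaptor to the MAPK pathway, had a log2 fold change of 1.02 and an edgeR adjusted p of 0.0333, which rose above the threshold without subclone 3 (0.0571) or 9 (0.0516). Tsc2, a brake on mTOR, had a log2 fold change of 0.71 and an edgeR adjusted p of 0.0433. Leaving out subclone 1, 3, 6, 7 or 9 raised it to at most 0.0775, and testing with no filter gave 0.0525.

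Of 21 genes for IGF2BP partners, LIN28 and let-7 targets, 19 were tested, 2 were higher, 1 lower and 16 did not pass by edgeR. The median log2 fold change was 0.22, and over all tested genes 7.33% were higher and 11.8% lower. Hmga1, a chromatin architecture gene, was at 251 to 390 CPM in the subclones and 75.6 CPM in the library labelled 3H3P (log2 fold change 2.10, SE 0.27, edgeR adjusted p = 0.00123), and Ythdf1, which encodes an m6A reader, was at 130 to 157 against 87.2 CPM (log2 fold change 0.67, edgeR adjusted p = 0.0206). Hmga2, a let-7 target of the fetal programme, was at 8.52 to 50.02 CPM in the subclones and 125 CPM in the library labelled 3H3P. Its edgeR adjusted p was 0.0435, and it did not pass when subclone 1, 3, 6, 7 or 9 was left out (at most 0.0677), with scaling by library size alone (0.0513) or on log2(TPM + 0.1) (0.123). Lin28a, which encodes a blocker of let-7 processing, had 0 counts throughout, and Lin28b was at most 0.533 CPM. The IGF2BP1 partner genes Syncrip, Ybx1, Hnrnpu and Dhx9 did not pass (edgeR adjusted p 0.122 to 0.475).

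Of 26 imprinted genes, 15 were tested, 4 were lower, 0 higher and 11 did not pass by edgeR, against 11.8% lower and 7.33% higher over all tested genes. Of the 15, 5 passed the filter on low counts through the library labelled 3H3P alone, among them 3 of the 4 called (Dcn, Tspan32 and Slc22a18). Another 4 passed it through the subclones alone. The count and the median log2 fold change of −1.81 are therefore a description. DESeq2 also called 0 higher and 4 lower, limma-voom called 0 higher and 6 lower, and edgeR's unadjusted p was under 0.05 for 9. The 4 were Dcn, Cd81, Tspan32 and Slc22a18. Counts were not split by allele, so whether any gene of this list is imprinted in these cells was not tested. Dcn, which encodes a matrix proteoglycan and is also one of the fibroblast and stellate markers, had 1 count over all subclones, against 1868 counts in the library labelled 3H3P. Tspan32 and Slc22a18, both on chromosome 7 like H19, had 7 and 12 counts over all subclones, against 35 and 47 counts in the library labelled 3H3P, and DESeq2 did not call Slc22a18 (adjusted p = 0.0563). Of 10 genes that maintain imprints, such as Ctcf and Dnmt1, all were tested and 0 passed by edgeR, with 2 at an unadjusted p under 0.05. DESeq2 called 1 higher, Tet3, a gene for DNA demethylation.

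**Figure D5:**
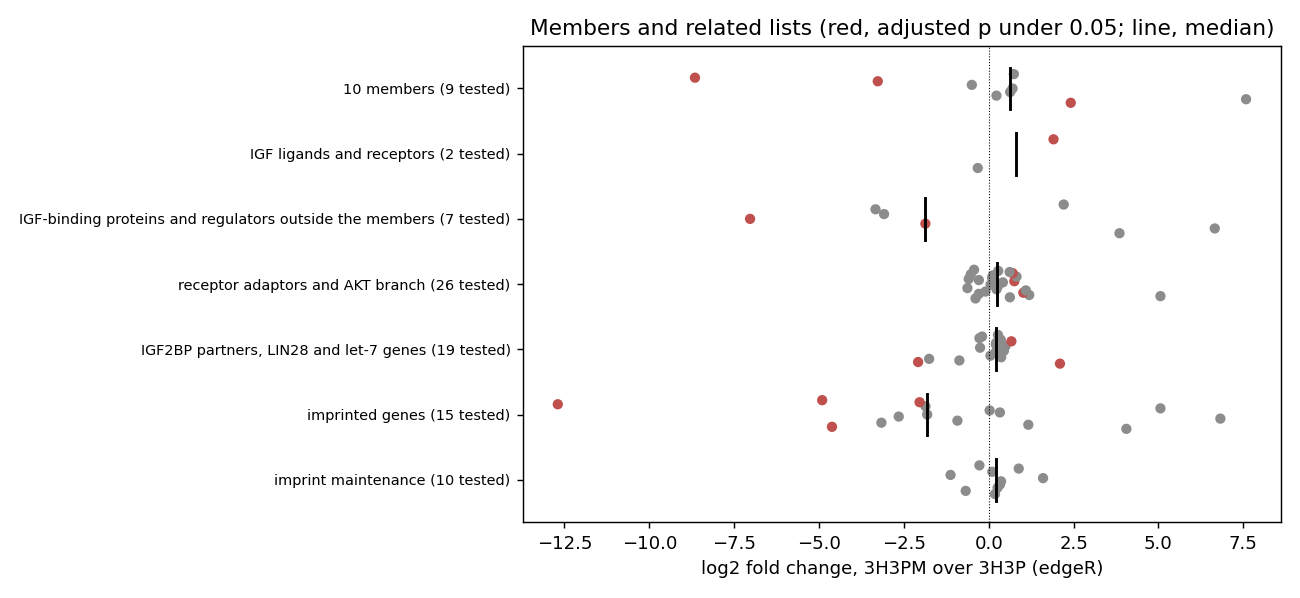
Log2 fold change of 3H3PM over 3H3P by edgeR for each tested gene of the 10 members and 6 related lists (points; red, adjusted p under 0.05; grey, not; black line, median of the list). The medians were −1.87 for the other binding regulators, −1.81 for imprinted genes and between 0.22 and 0.79 for the remaining lists. Through the library labelled 3H3P alone, 2 of 7 binding regulators and 5 of 15 imprinted genes passed the filter. Through the subclones alone, 3 and 4 passed, so these 2 medians are a description. Points of genes with 0 counts in a group depend on the prior count of the fit.

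Genes with the most similar pattern over the 7 subclones were found by the root mean square difference of centred log2 CPM among 8912 or 8913 genes with a mean of 10 CPM or more, leaving out symbols of predicted and Riken genes. For Igf2 they were Mrpl57 (0.106), Ublcp1 (0.125) and Bola3 (0.130), where the median gene differed by 0.467. For Igf2bp1 they were Tacc1 (0.214), Sall1 (0.234) and Palm3 (0.263), against a median of 0.830. For Igf2bp3 they were Slc20a2 (0.204), Tmco3 (0.215) and Loxl4 (0.236), against 0.534. For H19 the nearest, Ltbp2, differed by 1.06, against a median of 2.04.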

How the data were processed

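The submitters' processing notes name GRCm38 (mm10), RSEM, STAR, FastQC and DESeq2, and no source used here gives versions or options. Per the file headers, the deposited tables give RSEM's expected count, TPM, FPKM and transcript length (another measure, in bases) for each of 54838 genes, with reads that match several genes divided among them. The TPM and FPKM deposited by the authors were used for levels between genes and for alternatives. Positions are from GENCODE vM21 (GRCm38), which holds 53861 of the versioned identifiers.

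After rounding, expected counts went into the quasi-likelihood F test of edgeR 4.0.16 under R 4.3.3, after filterByExpr and TMM scaling, with Benjamini-Hochberg adjustment. All 8 libraries entered the fit. The spread came from the 7 subclones (6 residual degrees of freedom), with the same spread assumed for the single 3H3P library. P-values therefore cover differences between subclones of 1 library each. The fit takes the 7 subclones as independent, though which tumour each came from is not in the labels. If some share a tumour, it overstates the replication. Chi-square per degree of freedom ran from 12.6 between subclones 7 and 9 to 102 between subclones 2 and 8. CPM are TMM-scaled; log2 CPM has a prior count of 2. The SE is the log2 fold change divided by the square root of F. Floors are 3 counts and, like intervals, cover counting error only. Alternatives used DESeq2 1.42.0 and limma 3.58.1.

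The members and lists were chosen with earlier results of these data known. Named genes were the members, the IGF ligand and receptor list, up to 5 called genes of each other list by p, tested genes within 500 kb of H19, and the 3 nearest in pattern. Mir675, Mir483, Gm49394, Malsu1, Airn, the partners of IGF2BP1, Lin28a, Lin28b, Igfbp1, Igfbp6, Ctcf, Dnmt1, Nctc1, Trp53, Myc, Tet3, Pdgfrb, Pappa2, Stc1 and markers at 0 counts were named outside that rule, as were Phlda2, Peg3, Meg3 and Dlk1. The macrophage markers Cd14, Csf1r, Cd68, Adgre1 and Ptprc were also named outside it.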

Additional observations from a re-analysis of the deposited data

Results flagged for a closer look

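In these 7 subclones, 9 of 43 genes examined had 1 subclone whose gap to the nearest other exceeded Dixon's 95% limit for 7 samples. That limit passes about 1 in 20 groups of normal values by chance, a rate that does not hold for counts near 0. Igfbp2, Igfbp3, Dcn and Gm49369 had counts in 1 subclone alone and so passed it by construction. Among the members, H19 was at 10.2 CPM in subclone 7, and Igfbp2 (0.153 CPM in subclone 7) and Igfbp3 (0.132 CPM in subclone 6) rested on 2 counts each. Subclone 7 was also the highest for Gm49394 (29.3 CPM), which overlaps Igf2, for Igf1 (0.535 CPM) and for Prr33 (2.14 CPM). The others were Syt8 (13.7 CPM in subclone 2), Gm49369 (0.554 CPM in subclone 9) and Dcn (0.0692 CPM, 1 count, in subclone 9). Prr33, Syt8 and Gm49369 lie within 500 kb of H19.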

How the results depend on the processing

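Over 15 alternative settings and 1 added after seeing the data (Igf2 with Gm49394), the 9 tested members gave 133 values, of which 132 kept the direction and the side of the threshold and 0 reversed; DESeq2 gave H19 no adjusted p. Adjusted p ran from 1.97e-07 to 0.0179 for Igf2, 7.42e-08 to 0.0183 for Igf2bp3 and 2.25e-07 to 0.0123 for Igfbp3. Requiring 10 counts in 4 libraries removed Igfbp3 and H19 from the test, leaving 1 member lower, and H19 was not tested without subclone 7. Leaving out 1 subclone at a time gave 669 to 1185 genes called higher (lowest without subclone 3), and 1322 to 1800 called lower. DESeq2 called 1689 higher, against 1072 by edgeR. Of the members, 1 (H19) had an SD of log2 CPM above 1, and 0 without subclone 7 (0 to 1 over the subclones left out). The cause of these changes was not tested, beyond the fewer genes or libraries in each. With scaling by library size alone 1285 were higher and 1555 lower, and with DESeq2's size factors in edgeR 1029 were higher and 1759 lower. Settings that also change the test or unit gave 1347 higher and 1329 lower on log2(TPM + 0.1), 958 higher and 2239 lower by limma-voom, and 1739 lower by DESeq2. The share of Igf2bp2 was 68.4% to 74.0% with 1 subclone left out. No paired analysis was possible because the 2 groups share only the number 1, and 3H3P has 1 library. Ectopic MYC cannot be told apart from passage through mice or from isolation of subclones.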

Other observations

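Phlda2, an imprinted growth-restricting gene of the same region of chromosome 7 and singled out after its values were seen, had 73, 99 and 84 counts in subclones 1, 2 and 3, 0 counts in subclones 6, 7, 8 and 9, and 2 counts in the library labelled 3H3P. Igf2bp1 and Igf2r were likewise higher in subclones 1, 2 and 3 than in the other 4. Subclone numbers are labels, no test was made of this split, and its share over all tested genes was not counted. The edgeR adjusted p of Phlda2 for the subclones against the library labelled 3H3P was 0.483.

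Peg3, a paternally expressed gene also named after its values were seen, did not pass by edgeR but did by DESeq2, and was lower in 7 of 7 subclones, at 96.4 to 520 CPM, against 822 CPM in the library labelled 3H3P (adjusted p = 0.0808 by edgeR and 0.0452 by DESeq2). Meg3 had 0 counts in all 8 libraries, and Dlk1 had 3 counts over all subclones and 0 in the library labelled 3H3P.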
